A study of Mus musculus with 10 samples.

Results

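The kinesin family was followed in whole subcutaneous mouse tumours that differ in tumour burden. Members were the rows of the gene table whose symbol begins with Kif followed by a digit or by c, which gave 41 of 18223 genes. They were sorted by known role into 13 mitotic kinesins, 17 transport kinesins, 10 other kinesins and Kif1bp, which encodes a kinesin-binding protein with no motor of its own. The tumours were grown from MC38, a mouse colon adenocarcinoma line, and 5 RNA-seq libraries were made for each group. The treatment labels give 2000000 for high tumour burden (HTB) and 500000 for low tumour burden (LTB), each for 14 days, read here as the number of cells injected and the time of growth. No agent, transgene or deletion is named for either group, and the sources used here give no host strain, age or sex. Nothing in the labels ties the libraries to separate animals, so p-values cover only the spread from library to library. Kif2b, Kif12, Kif19b and Kif25 were not analysed here. Cenpe and Stard9, which are also kinesins, fall outside the symbol rule.

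Kinesins are motor proteins that use ATP to move along microtubules or to take microtubule ends apart. Mitotic kinesins build and position the spindle, align chromosomes and drive cytokinesis, and their transcripts accumulate late in the cell cycle. Transport kinesins carry vesicles, endosomes, mitochondria and other cargo, mostly towards the cell periphery, and several of them are best known from neurons. Many late cell cycle genes carry in their promoter a cell cycle genes homology region (CHR), bound by the DREAM and MuvB complexes, often with CCAAT boxes, which are bound by NF-Y.

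The promoters are shown because they hold a difference between the classes that does not come from the expression values. RefSeq promoters on build GRCm38.p6, from 250 bases before to 50 bases after the start, were searched on both strands for TTTGAA or TTCGAA (CHR) and for CCAAT. The motifs cannot lie within each other, and a match is only a run of letters. A promoter was found for 12 of the 13 mitotic kinesins, and 11 of these 12 promoters (91.7%) held a CHR match, against 19.2% of all 32851 promoters. CCAAT occurred in 8 of the 12 (66.7%), against 37.4% of all promoters, and both motifs occurred together in those 8, against 7.52% of all. In 9 of the 12 a CHR match began between 20 bases before and 30 bases after the start. Kif18a was the promoter among the 12 with neither motif. The windows of Kif14 (chr1:136467598-136467897) and Kif2c (chr4:117178723-117179022) lie inside their RefSeq genes, which begin further upstream, at 136466301 and 117182624. Their CHR matches, at -228 and -103, are counted among the 11, and may not belong to the main promoter. Promoters were found for 11 of the 17 transport kinesins, 13 promoters in all, of which 1 (7.69%), the second start of Kif1a, held a CHR match and 4 (30.8%) held CCAAT. The other kinesins matched for 8 of 10 genes with 10 promoters, of which 3 held both motifs, Kif27 among them. The windows of Kif3a, Kif26a and Kif27 also lie inside their RefSeq genes.

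The promoters of 5 of the mitotic kinesins that hold both motifs, from 100 bases before to 30 bases from the start, are printed 5′ to 3′ on the gene's strand, with CHR and CCAAT matches of either strand in capitals. These 5 were picked from the 8. Of those not printed, Kif4 and Kifc5b also hold CCAAT matches before a CHR match near the start. Kif14 instead has its CHR match at -228, upstream of its CCAAT match at -92. Each printed stretch has 1 CHR match near the start and at least 1 CCAAT match before it, and Kifc1 has a further CCAAT match after the start:
Kif11, chr19:37376282-37376411, strand plus: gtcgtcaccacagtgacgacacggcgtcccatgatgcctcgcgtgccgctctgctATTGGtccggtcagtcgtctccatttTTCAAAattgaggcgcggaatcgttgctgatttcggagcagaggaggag
Kif18b, chr11:102925095-102925224, strand minus: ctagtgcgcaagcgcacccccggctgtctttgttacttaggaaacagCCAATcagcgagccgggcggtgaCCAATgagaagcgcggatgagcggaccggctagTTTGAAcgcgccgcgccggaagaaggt
Kif22, chr7:127042391-127042520, strand minus: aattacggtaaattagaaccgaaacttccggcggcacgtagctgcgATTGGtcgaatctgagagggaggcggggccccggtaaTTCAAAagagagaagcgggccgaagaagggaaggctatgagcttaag
Kif23, chr9:61946770-61946899, strand minus: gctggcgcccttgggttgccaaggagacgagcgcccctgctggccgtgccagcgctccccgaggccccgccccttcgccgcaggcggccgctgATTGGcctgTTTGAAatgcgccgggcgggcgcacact
Kifc1, chr17:33890604-33890733, strand minus: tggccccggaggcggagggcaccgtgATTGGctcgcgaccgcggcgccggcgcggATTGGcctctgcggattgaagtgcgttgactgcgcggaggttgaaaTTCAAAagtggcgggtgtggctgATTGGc

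The same window is shown for the genes that passed the expression test and have a promoter in the table, the transport kinesins Kif13a, Kif5c and Kif1b and the ciliary Kif7. None of these promoters holds a CHR match, Kif1b holds CCAAT matches, 1 of them within the printed stretch of its more upstream start, and the others hold neither motif:
Kif13a, chr13:46929689-46929818, strand minus: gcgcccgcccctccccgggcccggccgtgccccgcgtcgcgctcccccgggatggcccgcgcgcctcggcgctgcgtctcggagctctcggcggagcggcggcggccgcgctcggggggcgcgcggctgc
Kif5c, chr2:49619186-49619315, strand plus: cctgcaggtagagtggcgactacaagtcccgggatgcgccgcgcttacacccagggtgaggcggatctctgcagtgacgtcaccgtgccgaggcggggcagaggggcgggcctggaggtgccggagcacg
Kif1b, chr4:149307704-149307833, strand minus: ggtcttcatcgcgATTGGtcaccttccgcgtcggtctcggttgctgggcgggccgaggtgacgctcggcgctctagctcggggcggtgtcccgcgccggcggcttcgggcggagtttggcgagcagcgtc
Kif7, chr7:79715678-79715807, strand minus: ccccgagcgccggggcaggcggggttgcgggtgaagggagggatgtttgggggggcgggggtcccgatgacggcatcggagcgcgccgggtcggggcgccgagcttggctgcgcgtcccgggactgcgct

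Between HTB and LTB, the mitotic and the transport kinesins gave different counts. None of the 13 mitotic kinesins passed edgeR's quasi-likelihood test at an adjusted p of 0.05, and none had an unadjusted p under that value. Over all 13469 genes, 3914 had an unadjusted p under 0.05. Of 17 transport kinesins, 4 passed: Kif13a and Kif1b rose, and Kif21b and Kif5c fell. Of 9 other kinesins tested, 1 passed, Kif7, which rose. The same test called 11.4% of all 13469 genes, 3.91% higher and 7.51% lower in HTB, so the 5 of 40 kinesins called lie near the share of all genes. The difference between the classes was not tested. Values below are CPM, counts per unit of library total after scaling by TMM factors, and log2 differences are HTB minus LTB. In whole tumours, fewer cells of a type and less RNA per cell cannot be told apart.

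**Figure D1:**
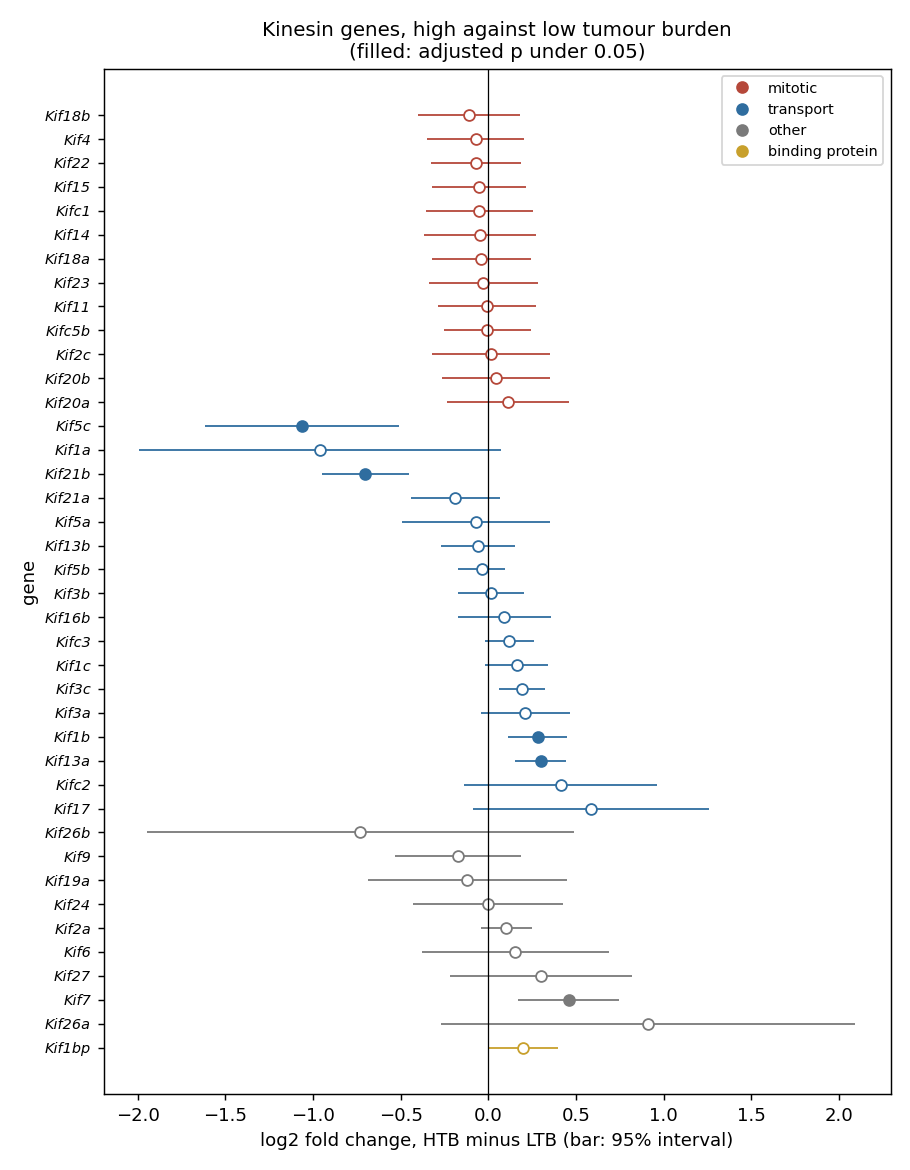
Log2 difference between HTB and LTB for 40 tested kinesin rows, with the 95% interval as a bar and filled points where the adjusted p was under 0.05. The 13 mitotic kinesins lie between -0.11 and 0.11, and the transport kinesins spread from -1.06 to 0.59.

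Kif21b fell. It encodes a kinesin-4 motor that restrains microtubule growth and is known from neurons and lymphocytes, and its gene (RefSeq, GRCm38.p6) lies at chr1:136131390-136178001. Its level was 19.8, 13.6, 17.6, 19.96 and 14.9 CPM in HTB replicates 1 to 5. In LTB it was 27.4, 28.7, 27.6, 25.6 and 31.1 CPM. Every HTB library lay below every LTB library. Means were 17.2 ± 2.86 in HTB and 28.1 ± 2.03 CPM in LTB (SD, n = 5 each), a log2 difference of -0.70 ± 0.11 (SE) with an edgeR adjusted p of 0.00468. It passed with each of the 10 libraries left out in turn.

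Kif5c encodes a kinesin-1 heavy chain that is enriched in neurons, and its gene lies at chr2:49619286-49774778. Its level was low: 2.91, 2.80, 1.32, 1.67 and 1.68 CPM in HTB. In LTB it was 4.69, 4.12, 5.17, 3.32 and 4.54 CPM. The groups did not overlap. Means were 2.08 ± 0.729 and 4.37 ± 0.695 CPM (SD, n = 5 each), a log2 difference of -1.06 ± 0.25 with an edgeR adjusted p of 0.0239. The call was lost without HTB replicate 3, 4 or 5 or LTB replicate 3, with a log2 difference between -0.996 and -0.94 and an edgeR adjusted p between 0.0555 and 0.0653.

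Some markers of other cell types were lower in HTB too. Of 7 T cell marker genes, 6 passed as lower in HTB, against 7.51% of all genes tested. The remaining gene, Cd3e, had -1.76 ± 0.52 with an edgeR adjusted p of 0.0508. The sum of the 7 ran from 42.1 to 86.4 CPM across HTB libraries and from 94.2 to 289 CPM across LTB libraries. Of 7 neuron markers, 6 were in the table and 1 was tested, Tubb3, which was lower in HTB. The neuron sum, nearly all of it Tubb3, ran from 81.1 to 105 CPM across HTB libraries and from 191 to 260 CPM across LTB libraries. The defining neuron genes Syt1, Stmn2, Rbfox3, Nefl and Nefm did not exceed 1.10 CPM in any library. Of these, Stmn2, Rbfox3 and Nefm had the higher mean in HTB, and Syt1 and Nefl in LTB. The epithelial and skin lists each held 1 gene that passed as lower in HTB. Of 5 epithelial markers, 2 were tested and 1 passed, the adhesion gene Cdh1, at 3.44 ± 1.46 CPM in HTB and 8.89 ± 3.99 CPM in LTB (SD, n = 5 each; log2 difference -1.36 ± 0.35, edgeR adjusted p 0.0332). The sum of the epithelial list ran from 2.56 to 6.74 CPM across HTB and from 6.22 to 16.05 CPM across LTB libraries. Epcam had -0.89 ± 0.54 with an edgeR adjusted p of 0.295. Krt8 and Krt18, at no more than 0.203 CPM in any library, had higher means in HTB, and Krt19 had a lower one. Of 5 skin markers, 2 were tested and 1 passed, Krt14. The skin sum ran from 4.42 to 12.4 CPM across HTB and from 32.0 to 51.7 CPM across LTB libraries. Krt14 made up most of it in LTB. Krt10 had means of 3.10 CPM in HTB and 3.12 CPM in LTB, and Krt5 was detected in LTB replicate 1 alone, at 6.89 CPM. Of 6 macrophage markers tested, 1 passed as lower in HTB, Cd68 (log2 difference -0.64 ± 0.19, edgeR adjusted p 0.0496). Among the rest none passed, and Mertk had the higher mean in HTB while the others had a lower one. Any part of other cell types in the fall of Kif21b and Kif5c was not tested.

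Kif13a rose. It encodes a kinesin-3 motor that carries endosomal cargo, among it the mannose 6-phosphate receptor, and its gene lies at chr13:46749087-46929917. Its level was 54.0, 57.5, 56.8, 59.0 and 60.5 CPM in HTB. In LTB it was 40.5, 49.6, 49.3, 47.9 and 47.5 CPM. Every HTB library lay above every LTB library, and LTB replicate 1 lay lowest. Means were 57.6 ± 2.44 and 47.0 ± 3.74 CPM (SD, n = 5 each), a log2 difference of 0.30 ± 0.07 with an edgeR adjusted p of 0.0186. Without HTB replicate 4 the log2 difference was 0.29 and the edgeR adjusted p 0.0528.

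Kif1b rose by a like amount and less firmly. It encodes a kinesin-3 motor with isoforms that carry mitochondria or synaptic vesicle precursors, and its gene lies at chr4:149176319-149307773. Its level was 155, 178, 150, 161 and 175 CPM in HTB. In LTB it was 117, 142, 143, 136 and 139 CPM. The groups did not overlap. Means were 164 ± 12.4 and 135 ± 10.8 CPM (SD, n = 5 each), a log2 difference of 0.28 ± 0.08 with an edgeR adjusted p of 0.0390. The call held in 1 of the 10 fits that left out a library, the one without HTB replicate 2, and the edgeR adjusted p over the 10 ran from 0.0400 to 0.0870.

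Kif7 encodes a kinesin-4 protein of the tip of the primary cilium that organises Hedgehog signalling, and its gene lies at chr7:79698098-79715772. Its level was 21.0, 14.5, 18.9, 21.2 and 23.1 CPM in HTB. In LTB it was 13.02, 16.3, 14.2, 16.1 and 12.4 CPM. HTB replicate 2 lay within the LTB range and the other HTB libraries above it. Means were 19.7 ± 3.30 and 14.4 ± 1.76 CPM (SD, n = 5 each), a log2 difference of 0.46 ± 0.13 with an edgeR adjusted p of 0.0459. The call held without HTB replicate 2 (edgeR adjusted p 0.00765) and was lost when any other of the 10 libraries was left out, up to an adjusted p of 0.107. In GENCODE vM21, 877 of its 4581 exonic bases (19.1%) are shared with the antisense gene 9330171B17Rik, so its reads are uncertain where strand was not used in counting. The list of ciliated cell markers (Foxj1, Dnah5, Rsph1 and Ccdc39) marks motile cilia, not the primary cilium. Its sum ran from 1.30 to 2.56 CPM across HTB and from 1.07 to 2.35 CPM across LTB libraries.

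**Figure D2:**
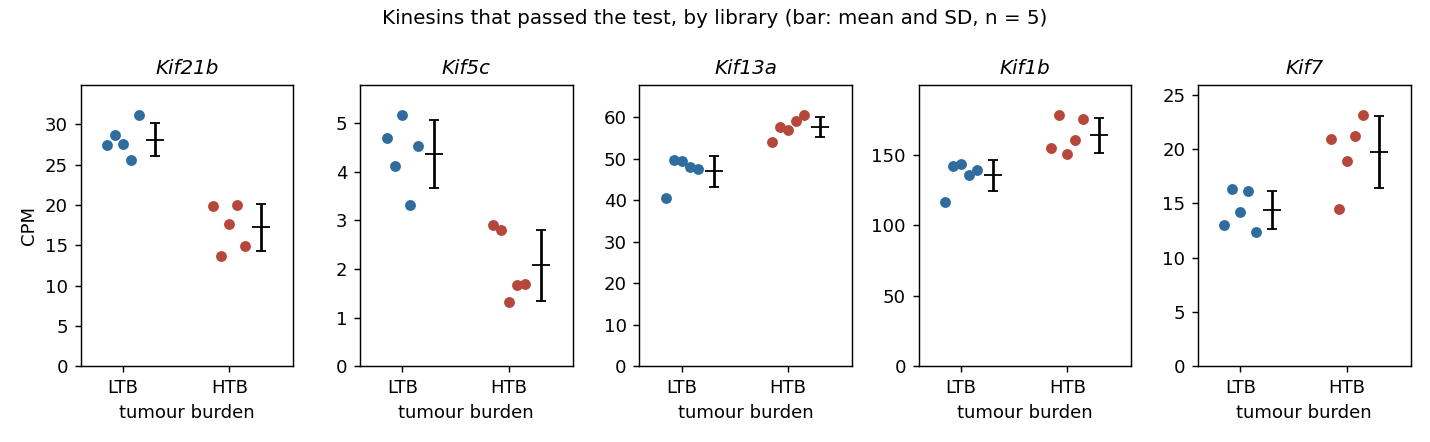
CPM of the 5 kinesins that passed the test in each of 5 LTB and 5 HTB libraries, as points with the mean and SD. The groups do not overlap for Kif21b, Kif5c, Kif13a and Kif1b, and for Kif7 the HTB library at 14.5 CPM lies within the LTB range.

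Groups did not overlap for 3 transport kinesins higher and 2 lower in HTB, against 4.13% and 7.4% of all genes tested. The fifth of them was Kif3c, a subunit of heterotrimeric kinesin-2, at 40.02 ± 2.14 CPM in HTB and 35.2 ± 1.24 CPM in LTB (SD, n = 5 each). Its log2 difference was 0.19 ± 0.06 with an edgeR adjusted p of 0.0591. Of its 7406 exonic bases, 35.3% are shared with the antisense gene 1110002L01Rik, and some of its read values were fractional, so its level is uncertain. In the authors' deposited table, Kif3c had a log2 difference of 0.20 with a q of 0.0128, and 5 transport, 1 other and 0 mitotic kinesins had a q under 0.05, against 14.5% of all genes.

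The most highly expressed transport kinesins per length of transcript did not pass. Kif5b, the ubiquitous kinesin-1 heavy chain, had 224, 196, 216, 211 and 232 CPM in HTB. Among LTB libraries it had 216, 218, 246, 218 and 214 CPM. The groups overlapped, with a log2 difference of -0.04 ± 0.06 and an edgeR adjusted p of 0.722. Kif1c, a kinesin-3 motor that moves integrins and dense core vesicles, had 198, 248, 204, 195 and 196 CPM in HTB. In LTB it had 180, 199, 188, 193 and 175 CPM. Only HTB replicates 2 and 3 lay above the LTB range, with a log2 difference of 0.16 ± 0.08 and an edgeR adjusted p of 0.217. HTB replicate 2 stood apart in muscle markers, with a sum of 10331 CPM where the rest of its group had 10.1 to 53.1 CPM, and in fat markers, at 4937 CPM against 20.7 to 24.6 CPM. The part of that tissue in the value of Kif1c was not tested.

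The transport class as a whole gave 10 positive and 7 negative log2 differences with a median of 0.09, beside a median of 0.02 over all genes. Without HTB replicate 5 or LTB replicate 1 the transport median was 0.03, with 9 positive and 8 negative. Without HTB replicate 2 the median over all genes was -0.0063. Within kinesin-1, Kif5c fell while Kif5b had -0.04 ± 0.06 and the neuronal Kif5a -0.07 ± 0.19. Within the kinesin-4 motors, Kif21b fell while its paralog Kif21a had -0.19 ± 0.11 with an edgeR adjusted p of 0.298. Kif1a, the neuronal motor of synaptic vesicle precursors, had -0.96 ± 0.47 at a mean of 0.368 CPM in HTB and 0.722 CPM in LTB (edgeR adjusted p 0.201). Kifc2, a minus-end motor of the brain, lay at 4.999 CPM in HTB replicate 2, below the 11.3 to 15.5 CPM of its group. Without HTB replicate 2, Kif1a passed at -1.58 ± 0.34 (edgeR adjusted p 0.0117) and Kifc2 at 0.60 ± 0.14 (edgeR adjusted p 0.0136), and 6 transport kinesins passed in place of 4. Calls over all genes rose too in that fit, from 1537 of 13469 to 3040 of 13551. Without HTB replicate 4 only Kif21b passed, and 2 passed without HTB replicate 3, HTB replicate 5 or LTB replicate 3. Calls over all genes fell too in those fits, to 742, 736, 931 and 940 in the same order.

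The mitotic kinesins showed no difference that passed, and the members with the smallest p illustrate this. Kif18b, a kinesin-8 motor that shortens astral microtubules, had 44.7, 58.1, 53.1, 49.3 and 47.9 CPM in HTB. In LTB it had 38.8, 62.9, 54.3, 53.9 and 64.4 CPM. The HTB range lay inside the LTB range, with a log2 difference of -0.11 ± 0.13 and an edgeR adjusted p of 0.617. Kif20a, which brings Aurora B to the spindle midzone for cytokinesis, had 88.3, 130, 111, 105 and 92.2 CPM in HTB. Its LTB libraries had 65.1, 112, 106, 93.0 and 113 CPM. The groups overlapped, with a log2 difference of 0.11 ± 0.16 and an edgeR adjusted p of 0.674. It shares 29.3% of its exonic bases with Cdc23 on the opposite strand. Kif22, a chromokinesin that pushes chromosome arms outwards, had 55.8, 71.9, 67.0, 60.2 and 54.9 CPM in HTB. In LTB it had 50.9, 68.5, 65.8, 63.5 and 77.5 CPM, again with overlap, a log2 difference of -0.07 ± 0.12 and an edgeR adjusted p of 0.731.

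The other 10 mitotic kinesins had log2 differences between -0.07 and 0.04 with edgeR adjusted p from 0.736 to 0.981. They were Kif4, Kif11, the motor that pushes spindle poles apart, Kif15, which backs it up, Kif14 and Kif20b of cytokinesis, Kif18a, which damps chromosome movement, Kif2c, a microtubule depolymerase of the centromere, Kif23 of centralspindlin, Kifc1, a minus-end motor that clusters spindle poles, and its near-identical copy Kifc5b. Kif11 had 110 ± 8.27 CPM in HTB and 111 ± 20.9 CPM in LTB (SD, n = 5 each). Kif23 had 89.1 ± 5.93 and 91.3 ± 20.1 CPM. The levels of Kifc1 and Kifc5b are uncertain, since reads of near-identical copies can be divided between them and their values were partly fractional. Across the 13 members the median log2 difference was -0.04, with 3 positive and 10 negative, and the 95% intervals together spanned -0.40 to 0.46. That median had no stable direction, since without HTB replicate 1, HTB replicate 5 or LTB replicate 5 it was above 0, at up to 0.03, with 7 positive and 6 negative. A difference beyond those bounds lies outside the interval of every member, and smaller differences are not excluded at this precision.

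The mitotic class stood low in LTB replicate 1. All 13 members had their lowest level there, at 0.613 to 0.817 of the mean of the other LTB libraries, with a median ratio of 0.666. Their summed level was 717, 822, 829, 827 and 713 CPM in HTB. In LTB it was 556, 894, 853, 753 and 909 CPM. LTB replicate 1 thus lay below every HTB library, and 3 of the other 4 LTB libraries lay above every HTB library. Without LTB replicate 1, all 13 log2 differences were negative with a median of -0.15, and still 0 passed by edgeR. Without both that library and HTB replicate 2, the median was -0.15 and 1 passed, Kif18b, at -0.27 ± 0.08 (edgeR adjusted p 0.0335). That fit called 2908 of all 13448 genes tested in it. LTB replicate 1 also had the highest summed T cell markers, 289 CPM, and macrophage markers, 834 CPM, and the lowest fibroblast markers, 4793 CPM. Their part in its mitotic level was not tested.

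**Figure D3:**
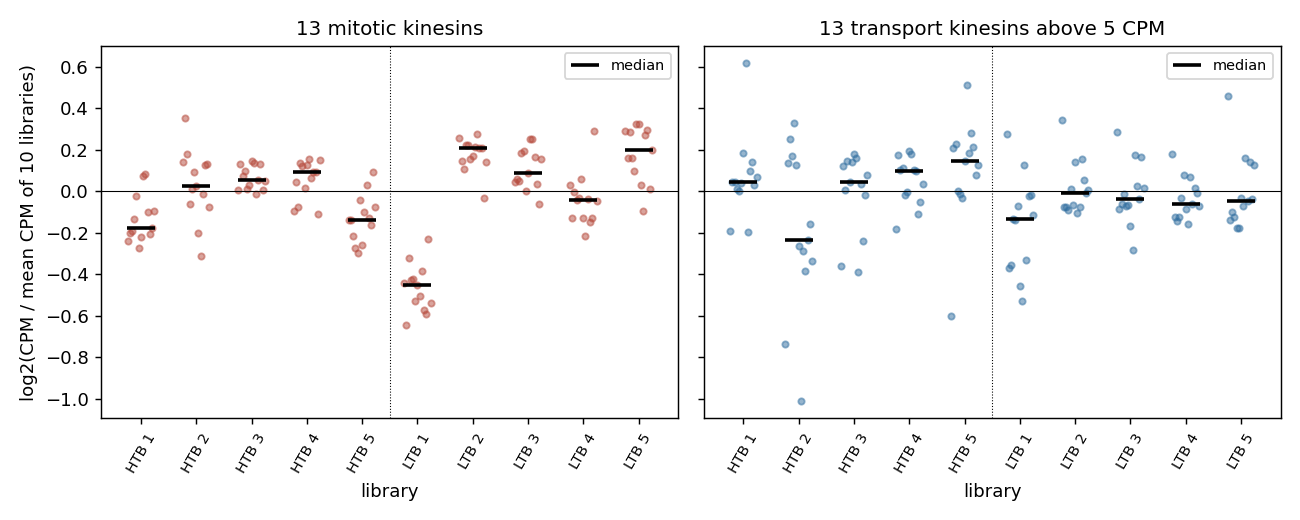
Log2 of the CPM in each library over the mean of the 10 libraries, for 13 mitotic kinesins and for the 13 transport kinesins with a mean above 5 CPM, with 1 point per gene and the median as a bar. All 13 mitotic points of LTB replicate 1 lie below 0.

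Transport kinesins summed to 1005, 987, 987, 994 and 1043 CPM in HTB. In LTB they summed to 875, 978, 980, 944 and 941 CPM. Every HTB library lay above every LTB library in this sum, which is dominated by the abundant members. Mitotic members made up 40.9 ± 2.25% of the reads of motor kinesins in HTB and 42.5 ± 3.98% in LTB (SD, n = 5 each), and the groups overlapped.

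Among the other kinesins, Kif2a and Kif26a are named for their level and their p. Kif2a, a microtubule depolymerase, had 83.7, 74.5, 86.7, 93.5 and 78.9 CPM in HTB. Its LTB values were 79.5, 76.7, 84.1, 76.0 and 73.8 CPM, with a log2 difference of 0.10 ± 0.07 and an edgeR adjusted p of 0.329. The groups overlapped, and 19.2% of its exonic bases are shared with Dimt1. Kif26a, an atypical kinesin without motor activity, had 0.619, 5.28, 1.46, 1.05 and 1.06 CPM in HTB. In LTB it had 1.17, 1.05, 1.24, 0.763 and 0.845 CPM. Its log2 difference of 0.91 ± 0.53 (edgeR adjusted p 0.283) was 0.05 without HTB replicate 2, the library high in muscle and fat markers. Its relative Kif26b had -0.73 ± 0.55 with an edgeR adjusted p of 0.405, and passed as lower without HTB replicate 2, at -1.39 ± 0.43 (adjusted p 0.0433). Kif24, a depolymerase of the centriole, and the ciliary Kif6, Kif9, Kif19a and Kif27 had log2 differences between -0.17 and 0.30, none of which passed. Kif28 was not tested, with 2 reads in HTB replicate 2 and 0 in the rest. Kif1bp, whose protein binds kinesins, had 0.20 ± 0.09 with an edgeR adjusted p of 0.164.

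Levels between genes were compared per length of transcript with the group means in the authors' deposited table, an FPKM-like level whose header names no unit. Kif5b stood highest, at 36.8 in HTB and 37.1 in LTB, followed by Kif1c at 35.0 and 30.4. The mitotic Kif22 (31.7 and 32.9), Kif20a (31.5 and 28.8), Kif23 (28.1 and 28.4) and Kif2c (27.9 and 27.3) came next. The file gives no spread for these means, so the order of neighbours is not resolved. Of the called genes, Kif1b stood at 18.8 and 15.1, Kif13a at 8.51 and 6.82, Kif7 at 4.996 and 3.77, Kif21b at 1.93 and 3.08, and Kif5c at 0.310 and 0.642. The mitotic members ranged from 3.85 for Kif14 to 32.3 for Kif22 as a mean of both groups. The 4 transport kinesins under 1, Kif1a, Kif17, Kif5a and Kif5c, lay between 0.069 and 0.476, and the others between 2.51 and 37.0.

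**Figure D4:**
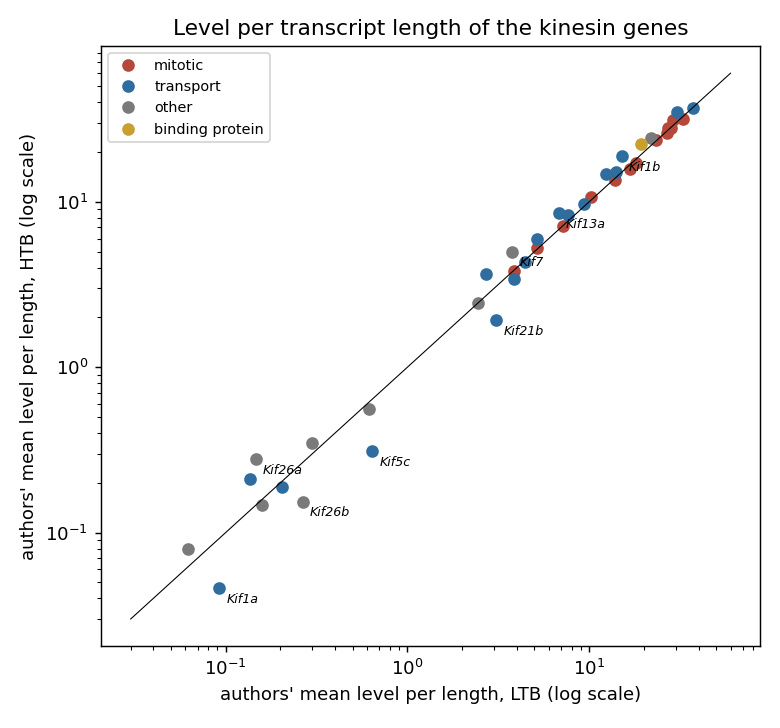
Per-length level of the kinesins in the authors' deposited table, as group means for LTB and HTB on log axes, 1 point per gene, coloured by class. Mitotic kinesins lie near the line of equal level, from 3.85 for Kif14 to 32.3 for Kif22 as a mean of both groups. Kif5c, Kif21b, Kif1a and Kif26b lie clearly below that line. Kif28, listed at 0 in LTB, is not drawn.

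Genes that work beside the kinesins gave the following counts. Over all 13469 genes, the test called 3.91% higher and 7.51% lower in HTB, and 3914 had an unadjusted p under 0.05. Of 21 mitotic partner genes, 0 passed, with a median log2 difference of -0.10, 5 positive and 16 negative, and 4 had an unadjusted p under 0.05. Most of the list are components of the spindle, checkpoint or cytokinesis, but it also holds the proliferation gene Mki67 and Top2a. It counts Cenpe too, itself a kinesin outside the symbol rule, at -0.009 ± 0.13. Aurka, the spindle pole kinase, had 54.4 ± 6.95 CPM in HTB and 67.0 ± 6.13 CPM in LTB (SD, n = 5 each), a difference of -0.29 ± 0.10 with an edgeR adjusted p of 0.0772. Top2a, which untangles DNA, had -0.29 ± 0.11 (edgeR adjusted p 0.102) and Bub1, a checkpoint kinase, -0.26 ± 0.10 (edgeR adjusted p 0.107). Of 15 DNA replication genes, 3 passed, E2f1, Pcna and Cdt1, all lower, with a median of -0.26 and all 15 negative. The activator E2f1 had -0.34 ± 0.06 (edgeR adjusted p 0.00861) and the polymerase clamp Pcna -0.36 ± 0.07 (edgeR adjusted p 0.00899). Cdt1, which licenses origins, had 64.5 ± 6.23 CPM in HTB and 86.0 ± 7.42 CPM in LTB (SD, n = 5 each), without overlap, a difference of -0.41 ± 0.08 with an edgeR adjusted p of 0.0137. Without HTB replicate 2, the library high in muscle and fat markers, 9 replication genes and 3 mitotic partners passed. Calls over all genes rose in the same fit, from 1537 of 13469 to 3040 of 13551. Without LTB replicate 1, 3 replication genes and 3 mitotic partners passed, and all 21 partner differences were negative. Over all genes 1108 of 13538 then passed. The difference between these lists and the mitotic kinesins was not tested.

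Of 16 kinesin adaptor genes tested, 1 rose, Rhot2, which anchors mitochondria to motors, from 39.4 ± 1.54 CPM in LTB to 47.0 ± 2.18 CPM in HTB (SD, n = 5 each). The groups did not overlap, and the log2 difference was 0.26 ± 0.05 with an edgeR adjusted p of 0.0129. Klc4, a kinesin light chain, had 0.47 ± 0.14 (edgeR adjusted p 0.0519) and the mitochondrial adaptor Trak1 0.21 ± 0.09 (edgeR adjusted p 0.152). The list's median was 0.09, with 12 positive and 4 negative. Of 21 genes of dynein and dynactin, the opposing motor, 1 rose, the light chain Dynlt1b, at 63.4 ± 3.92 CPM in HTB and 51.3 ± 6.06 CPM in LTB (SD, n = 5 each). Its log2 difference was 0.31 ± 0.08 with an edgeR adjusted p of 0.0389, and the groups overlapped. The call was lost without HTB replicate 1, 3 or 4 or LTB replicate 1, 3, 4 or 5, leaving 0 dynein genes in each of those fits. Dctn1, a dynactin subunit, had 0.36 ± 0.11 (edgeR adjusted p 0.0512) and Dync1li1, a light intermediate chain, 0.16 ± 0.05 (edgeR adjusted p 0.0743). The median of the dynein list was 0.04, with 13 positive and 8 negative. The 1 adaptor and 1 dynein gene called stand beside 3.91% of all genes called higher in HTB.

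Of the series as a whole, library totals ran from 23070903 to 27185152 estimated reads. Of the epithelial markers that could bear on the labelled carcinoma line, Krt8, Krt18 and Krt19 did not exceed 0.203 CPM in any library, Epcam lay between 0.163 and 1.82 CPM and Cdh1 between 2.03 and 15.3 CPM. Fibroblast markers summed to between 5822 and 9937 CPM across HTB and between 4793 and 7212 CPM across LTB libraries. Given in the same order, the ranges of endothelial markers were 95.6 to 290 and 73.9 to 120 CPM, those of Schwann cell markers 21.6 to 25.0 and 21.3 to 32.7 CPM, and those of macrophage markers 351 to 659 and 448 to 834 CPM.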

How the data were processed

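RNA of whole MC38 tumours (10 libraries) was purified on silica columns and sequenced from SMARTer mRNA libraries, per the labels' protocols. The genome build was GRCm38 (mm10), per the submitters' processing notes. For the aligner, the counter and any strand setting, the entry is: not given in the sources used here. The table deposited by the authors holds estimated counts per gene and library (86.4% whole within 1e-09). The others were rounded, by at most 0.5. Fractional values occurred in 11 kinesin rows, in all 10 libraries for Kif5b, Kif20a, Kif2a, Kifc1, Kifc5b and Kifc2. They also occurred for Kif3a, Kif3c, Kif11, Kif24 and Kif27, so the levels of all 11 carry that uncertainty. The deposited table also holds the authors' log2 fold changes, q-values attributed to DESeq2 by the headers, and group means per length, which match FPKM in form though the header names no unit.

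The test was edgeR 4.0.16 (R 4.3.3), quasi-likelihood, with TMM factors of 0.975 to 1.03 and filterByExpr, with group as the only term and Benjamini-Hochberg adjustment over 13469 genes at 0.05. Differences between libraries of each group exceeded sampling noise, so each counted once. Intervals are 95% intervals of the fit.

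Alternatives were other scaling factors, DESeq2 1.42.0, voom (limma 3.58.1), other filters (none, or at least 1 CPM in 5 libraries), the replicate number as a block, and each library left out. A fit without both HTB replicate 2 and LTB replicate 1 was chosen after seeing the data. Kinesins and lists were chosen with earlier results of these data known. Values by library are given for each member that passed, and for the 3 of smallest p and the 2 highest per length in each class. For each list beside them the 3 genes of smallest p are named. Kif3c, Kif1a, Kifc2, Kif26b and the remaining members complete the account.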

Additional observations from a re-analysis of the deposited data

Results flagged for a closer look

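Among 30 groups of 5 libraries, those of the kinesins described by library and their class sums, 4 had 1 library whose gap to the nearest other, as a share of the group's range, was above Dixon's critical value of 0.71. Chance gives about 1 such group in 20. Kif13a in LTB replicate 1 was 40.5 CPM against 47.5 to 49.6 CPM in the other LTB libraries. Kif5b in LTB replicate 3 was 246 CPM against 214 to 218 CPM. Kif1c in HTB replicate 2 was 248 CPM against 195 to 204 CPM in the other HTB libraries. Kif26a in HTB replicate 2 was 5.28 CPM against 0.619 to 1.46 CPM.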

How the results depend on the processing

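Each choice was changed alone, except that DESeq2 changes both scaling and test and that 1 fit left out a pair of libraries. No result among the 5 called kinesins and the counts of calls changed direction. Kif21b passed under every setting run, with a log2 difference of -0.76 to -0.63 over the libraries left out in turn. With 1 library left out, the range was -1.21 to -0.94 for Kif5c, 0.25 to 0.32 for Kif13a, 0.23 to 0.31 for Kif1b and 0.40 to 0.55 for Kif7. The counts then ranged over 1 to 6 transport, 0 to 2 other and 0 mitotic kinesins, 0 to 3 mitotic partners, 3 to 9 replication genes, 1 to 2 adaptors, 0 to 3 dynein genes and 736 to 3040 of all genes, the last lowest without HTB replicate 3 and highest without HTB replicate 2. Kif7 did not pass with voom (0.45), with no filter (0.47) or with the replicate block (0.45), which left 0 other kinesins.

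Replicate numbers do not pair these libraries: deviations of same-numbered libraries correlated at 0.0559, 0.0256, 0.00164, 0.109 and 0.107, and 1 of the 5 numbers matched its own best. The replicate block moved the count over all genes from 1537 to 971, that of adaptors and of dynein genes to 0 each, and Kif1b to 0.28 with an edgeR adjusted p of 0.0668.

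DESeq2 called 2449 genes in all, 2 mitotic partners, 7 replication genes, 2 adaptors and 3 dynein genes. It also called 5 transport kinesins in place of 4, with Kif3c added as higher in HTB. In edgeR, scaling by DESeq2 size factors or by upper quartiles gave 2 adaptors and 2 dynein genes, and voom gave 2 adaptors. Without HTB replicate 2 and LTB replicate 1 together the counts were 2908 genes, 1 mitotic, 6 transport and 2 other kinesins, 7 mitotic partners, 11 replication genes, 2 adaptors and 2 dynein genes. The causes were not tested. With voom 5 mitotic kinesins had a positive and 8 a negative difference. At 5 libraries a group, differences inside the printed intervals could not be resolved, and members under about 1 CPM rest on few reads.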
